A study of Homo sapiens with 4 samples.

Results

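The loops described here are RNA polymerase II (RNAPII)-linked DNA loops that tie a promoter without a G-quadruplex (G4) motif to a distal site. Of 77862 distinct loops in HepG2 cells, 11446 (14.7%) were of this kind. A loop was taken when exactly 1 of its anchors came within 1 kb of a start site annotated for a protein-coding gene, and when no such start site had a predicted G4 motif within 1 kb. The motif searched was 4 runs of at least 3 G with 1 to 7 bases between runs, read on both strands of the GRCh38 reference. The rule used position and sequence only, and no loop was chosen by its counts. The same rule with a motif at the start site gave 13953 promoter-distal loops, which serve as the comparison. A further 9551 loops joined a pair of promoters, and 42912 had no promoter anchor.

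POLR2A HiChIP-seq captures pairs of DNA fragments that lie close together in chromatin bound by POLR2A, the largest subunit of RNAPII, and counts them as paired-end tags (PETs). The cells were HepG2, a human hepatocellular carcinoma line, treated for 24 h with sterilized water (mock) or with 20 µM pyridostatin (PDS), a small molecule that binds G4 structures. There were 2 biological replicates per condition, which the authors combined into 1 loop list for mock-treated and 1 for PDS-treated cells. No spread between replicates can be had from these lists, so every interval below is a 95% interval that covers counting error only, and loops that share an anchor are not independent.

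A promoter can be tied to distal DNA by enhancers, by a neighbouring gene or by the body of its own gene, along which the polymerase travels. G4 structures are folds of guanine-rich DNA, which form readily in the GC-rich promoters of housekeeping genes. Promoters without such a motif are often less GC-rich and include internal, alternative start sites of long genes. The question put to these loops is how far their number differs when cells are treated with a ligand whose binding motif is absent from their start site.

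The members' start sites were mostly alternative ones. Their loops used 6501 promoter anchors at 4749 genes, and 1501 of these anchors (23.1%) held the canonical start site of a gene (the start of the transcript that GENCODE marks as canonical). Among motif promoter-distal loops, 5273 of 7607 promoter anchors (69.3%) held one. A member's anchor had a median of 1 annotated start site and a mean of 2.30, against a median of 3 and a mean of 4.96 with a motif. Start sites of only 1 gene lay at 95.9% of the members' anchors. The anchors were wide, with a median of 7012 bp, and 2108 of them (32.4%) held a G4 motif elsewhere. Such a motif did not lie wholly within 1 kb of a protein-coding start site. The members' promoter anchors had a median GC content of 41.5%, against 50.9% for promoter anchors with a motif at the start site. The label thus held by the rule, but about 3 in 4 loops (76.8%) lay at alternative start sites only.

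Promoters of the 5 genes with most PETs whose canonical start site lay at a member's anchor are shown because these genes carried dense sets of loops. Each is 300 bases of GRCh38, from 250 before to 50 after the start of the canonical transcript in GENCODE 44, written 5′ to 3′ along the gene. Capitals mark short strings of letters searched for on both strands. TATAAA is the core of a TATA box and CCAAT is read by nuclear factor Y. The GC box string, GGGCGG, is read by Sp-family factors, while CCGGAAG is known for ETS factors. Forkhead factors read TGTTTAC and the liver factor HNF4 reads CAAAGTCCA. The cyclic AMP response element is TGACGTCA.
MIPOL1 promoter, chr14:37197687-37197986 (plus strand): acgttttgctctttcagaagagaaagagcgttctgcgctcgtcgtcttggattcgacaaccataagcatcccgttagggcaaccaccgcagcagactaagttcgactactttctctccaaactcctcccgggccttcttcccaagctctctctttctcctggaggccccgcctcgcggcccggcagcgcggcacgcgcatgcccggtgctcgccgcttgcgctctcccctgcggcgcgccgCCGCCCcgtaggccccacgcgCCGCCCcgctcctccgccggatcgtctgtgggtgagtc
RALGAPA1 promoter, chr14:35809246-35809545 (minus strand): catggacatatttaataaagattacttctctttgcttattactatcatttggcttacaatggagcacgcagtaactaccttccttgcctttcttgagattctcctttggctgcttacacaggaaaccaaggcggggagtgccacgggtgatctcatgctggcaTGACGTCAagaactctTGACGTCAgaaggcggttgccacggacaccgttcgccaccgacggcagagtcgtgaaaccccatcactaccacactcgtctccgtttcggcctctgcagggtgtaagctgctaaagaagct
EGLN3 promoter, chr14:33951025-33951324 (minus strand): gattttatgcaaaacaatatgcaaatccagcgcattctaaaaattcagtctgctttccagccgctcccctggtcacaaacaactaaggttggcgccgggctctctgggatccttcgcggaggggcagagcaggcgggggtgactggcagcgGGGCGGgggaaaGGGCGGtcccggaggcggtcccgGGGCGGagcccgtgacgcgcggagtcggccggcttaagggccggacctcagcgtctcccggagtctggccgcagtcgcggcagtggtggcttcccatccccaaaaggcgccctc
NUBPL promoter, chr14:31561154-31561453 (plus strand): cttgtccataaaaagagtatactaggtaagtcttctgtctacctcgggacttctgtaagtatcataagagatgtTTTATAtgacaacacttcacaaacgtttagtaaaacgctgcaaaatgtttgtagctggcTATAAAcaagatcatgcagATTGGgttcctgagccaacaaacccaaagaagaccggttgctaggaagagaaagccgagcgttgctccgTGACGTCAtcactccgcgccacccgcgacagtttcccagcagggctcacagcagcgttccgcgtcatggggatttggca
MIA2 promoter, chr14:39233665-39233964 (plus strand): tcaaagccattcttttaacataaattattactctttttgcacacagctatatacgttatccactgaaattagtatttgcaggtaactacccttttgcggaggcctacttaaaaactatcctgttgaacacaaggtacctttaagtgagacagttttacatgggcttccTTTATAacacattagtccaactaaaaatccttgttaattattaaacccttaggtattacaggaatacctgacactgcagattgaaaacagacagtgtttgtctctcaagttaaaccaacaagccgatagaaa

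RALGAPA1 held TGACGTCA at 2 places, starting 87 and 71 bases before its start site. EGLN3 held GGGCGG 3 times and MIPOL1 held it 2 times, on its minus strand. NUBPL held TATAAA on both strands, the CCAAT letters and a TGACGTCA copy that started 29 bases before the start site. MIA2, at 35.0% GC the least GC-rich of the 5, held TATAAA on its minus strand. A match is a description of the letters, not evidence of binding. The members of these genes used several promoter anchors, 10 at MIPOL1, 8 at RALGAPA1, 7 at EGLN3, 6 at NUBPL and 4 at MIA2. A printed promoter is therefore not the start site of all loops of its gene. At EGLN3 the loops with 16 and 14 mock PETs started from another anchor, chr14:34010222-34027031.

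Promoter letters were then counted over all genes that had only member loops or only motif loops. TATAAA lay in 11.1% (95% Wilson interval 10.0 to 12.3%) of 2816 promoters of genes with only member loops, in 5.47% (4.89 to 6.10%) of 5432 with only motif loops, and in 9.71% of all 20033 protein-coding promoters. Where the canonical start site itself lay at the anchor, the shares were 15.4% of 1482 and 5.65% of 4531 promoters. GGGCGG showed the opposite order, at 53.6% and 73.6%, with 61.3% of all promoters. That string contains a run of G, so the motif rule bears on it directly. CCAAT lay in 37.7% and 33.6%, CCGGAAG in 18.04% and 13.6%, and TGTTTAC in 3.02% and 1.91%, beside 36.1%, 14.1% and 2.42% of all promoters. TGACGTCA was found in 3.12% and 2.63%, and CAAAGTCCA in 0.568% and 0.313%, where the intervals of the 2 groups overlapped. For the last string all promoters held 0.319%, and for TGACGTCA 2.69%. Median promoter GC content was 60.3% for genes with only member loops and 67.3% for those with only motif loops. The groups were set by sequence near start sites, so none of these shares or GC contents is independent of the rule.

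The distal anchors could hold a motif, since the rule did not look at them. Of 9969 distal anchors, 3891 (39.0%) held a predicted G4 motif, against 50.5% of the distal anchors of motif loops. The first motif of the distal anchor is shown for the 4 members with most PETs in their lists whose distal anchor held one, with the runs of G in capitals and the strand that carries the runs. A DNAAF9 loop tied with the last of these in summed PETs and is not shown.
SEC23A loop, chr14:39052145-39052171 (plus strand): GGGcacctgtGGGGagtgaGGGGaGGG
ACSM5 loop, chr16:20593782-20593807 (plus strand): GGGGGGtGGGGacctGGGGGGtaGGG
FAM177A1 loop, chr14:35061305-35061324 (minus strand): GGGcGGGGctGGGGtaGGGG
RALGAPA1 loop, chr14:35643183-35643204 (plus strand): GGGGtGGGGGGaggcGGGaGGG

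The SEC23A, FAM177A1 and RALGAPA1 motifs lay inside the looped gene itself, and none of the 4 overlapped an annotated exon, so these 3 were intronic. The ACSM5 motif lay within the span of ACSM5P1, a pseudogene, outside protein-coding genes. The distal anchors of the ACSM5, FAM177A1 and RALGAPA1 loops held 4, 2 and 3 motifs, and that of the SEC23A loop held 1.

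PDS-treated cells listed 2662 member loops where mock-treated cells listed 9828. The PDS/mock ratio was 0.271 (0.260 to 0.283), or 3.69-fold fewer loops. PETs in these loops summed to 37352 in the mock list and 9156 in the PDS list, a ratio of 0.245 (0.240 to 0.251). Listed loops carried few PETs, with a mean of 3.80 in the mock list and 3.44 in the PDS list. The lowest count in either list was 3, which 59.8% of mock and 71.0% of PDS members had, so an unlisted loop may have had up to 2 PETs. Loops with at least 5 PETs fell in number from 1865 to 235, and those with at least 10 from 88 to 4.

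Motif promoter-distal loops went from 12257 to 2968, a ratio of 0.242 (0.233 to 0.252). The members' ratio was 1.12 times that of motif loops (1.06 to 1.19), and 1.13 times (1.10 to 1.17) for PETs. Against loops with no promoter anchor, whose ratio was 0.307 (0.300 to 0.313), the members' ratio was lower, at 0.883 times (0.842 to 0.926). Against promoter-promoter loops it was 1.07 times as high (1.00 to 1.14). The PDS list thus held slightly more loops per mock loop for members than for motif loops, and fewer than for loops away from promoters. These ratios include loops found in the PDS list alone, so they do not give the share of mock loops listed again, which follows below. The lists hold unscaled PETs and no library depths, so a difference in depth and an effect of PDS cannot be told apart in the ratio of 0.271 itself or in the factor of shared loops given below.

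The difference from motif loops was not seen among loops with the same kind of start site. Members with a canonical start site at the anchor went from 2331 to 542 loops, a ratio of 0.233 (0.212 to 0.255). Members at alternative start sites went from 7497 to 2120, a ratio of 0.283 (0.270 to 0.297). The first ratio was 0.822 times the second (0.740 to 0.913), and motif loops showed 0.826 times (0.757 to 0.901) for the same split. Within canonical start sites the members' ratio was 1.02 times that of motif loops (0.915 to 1.13), and within alternative ones 1.02 times (0.935 to 1.11). Stratified by this split, the ratio of ratios was 1.02 (0.953 to 1.09). With promoters defined by canonical start sites alone it was 0.995 (0.911 to 1.09), and with motifs looked for in the whole promoter anchor 1.02 (0.954 to 1.09). All of these intervals include 1, and the widest of them runs up to 1.13, so a difference of up to that size cannot be told from none here.

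**Figure D1:**
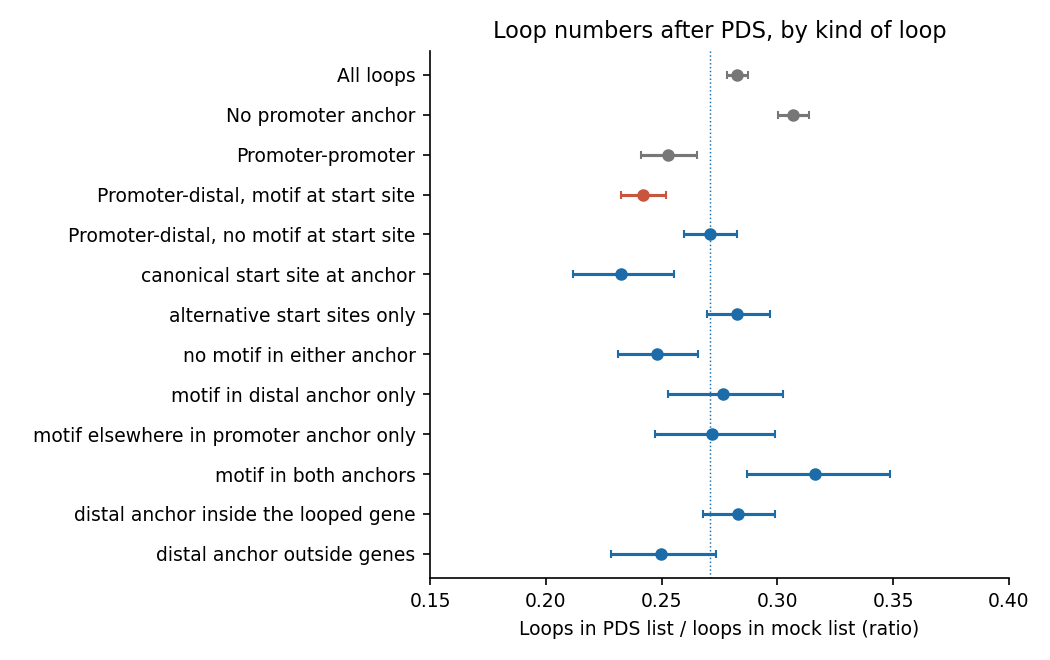
PDS/mock ratio of loop numbers (horizontal axis, linear, not starting at 0) with 95% counting intervals for all loops, the other kinds of loop and splits of the members (blue). The members' ratio is 0.271, marked by the dotted line, and falls to 0.233 at canonical start sites, close to the 0.242 of motif loops (red).

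Of the 9828 mock members, 1044 were also in the PDS list, which is 10.6% (10.0 to 11.2%). The share over all mock loops was 11.0%, so the members' share was near the background. Of the 2662 PDS members, 39.2% (37.4 to 41.1%) were in the mock list, where all PDS loops gave 39.1%. A mock member was listed again in 5.77% of cases with 3 PETs, 11.6% with 4, 16.2% with 5, 31.4% with 6 to 9 and 55.7% with 10 or more. Motif loops had 5.03% with 3 PETs and 50.4% with 10 or more. Stratified by mock PETs, the odds of being listed in both were 1.06 times those of motif loops (0.965 to 1.16), an interval that includes 1.

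**Figure D2:**
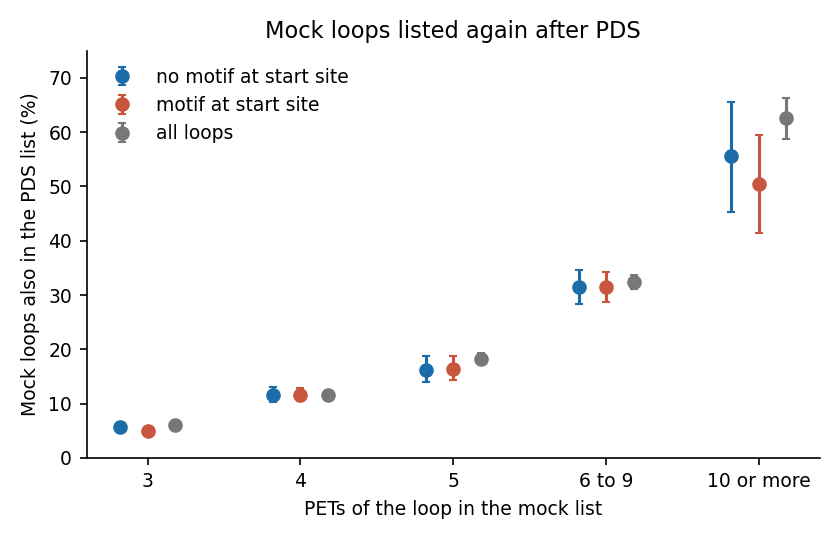
Share of mock loops also in the PDS list (vertical axis, percent) by the loop's PETs in the mock list, for members, motif promoter-distal loops and all loops, with 95% Wilson intervals. The members rise from 5.77% at 3 PETs to 55.7% at 10 or more, and their intervals overlap those of motif loops in every class.

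Among the 1044 members in both lists, 574 had fewer PETs in the PDS list, 332 the same number and 138 more. Over all shared loops 55.3% had fewer and 14.6% had more. PETs reached at least 2 times the mock count in 8, beside 1.24% of all shared loops. The minimum of 3 PETs hides larger drops, since 339 of the shared members had 3 PETs in the mock list. From shared members with 7 to 19 summed PETs, and with the minimum taken into account, the PDS/mock factor of PETs per loop was 0.483 (0.448 to 0.520, 794 loops). For motif loops the factor was 0.466, and the members' factor was 1.04 times that (0.938 to 1.15). At canonical start sites the members' factor was 0.504 (0.424 to 0.595) and at alternative ones 0.478 (0.439 to 0.519). Their loop ratios had the opposite order.

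Distal anchors lay mostly in the same gene as the promoter. In the mock list 5766 members (58.7%) had the midpoint of the distal anchor inside the looped gene, against 41.1% of motif loops. The same list had 76.3% of members and 27.5% of motif loops at alternative start sites only. The part of start-site type in this contrast was not tested. Of the other members, 411 lay at a lncRNA start site. Of those left, 1338 lay inside another protein-coding gene and 2313 outside protein-coding genes. With distal anchors inside the looped gene included, 622 mock members had a lncRNA start site at the distal anchor. Loops within the gene went from 5766 to 1631, a ratio of 0.283 (0.268 to 0.299), and those outside genes from 2313 to 578, a ratio of 0.250 (0.228 to 0.274). The factor of shared loops did not follow, at 0.473 (0.433 to 0.516) within the gene and 0.494 (0.411 to 0.588) outside genes. The ratio inside the looped gene was 1.11 times that of all other members (1.02 to 1.22), but with canonical and alternative start sites as strata it was 1.07 (0.978 to 1.17), and without chromosome 14 it was 1.09 (0.998 to 1.20). Median distance between anchors was 18644.5 bp in the mock list and 18186.5 bp in the PDS list. Members of 10 to 20 kb had the highest ratio, 0.300 (0.278 to 0.324), which was 1.22 times that of members up to 10 kb (1.08 to 1.37). Motif loops gave 1.29 times (1.15 to 1.45) for the same distances. Upstream and downstream loops had ratios of 0.271 and 0.275.

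A motif in the distal anchor did not go with a lower PDS/mock ratio. Members with such a motif went from 3909 to 1148 loops (0.294, 0.275 to 0.314) and those without from 5919 to 1514 (0.256, 0.242 to 0.271), a ratio of ratios of 1.15 (1.05 to 1.25). Motif promoter-distal loops gave 1.18 (1.09 to 1.28) for the same split, so this was not particular to the members. Motif-holding distal anchors were wider, with a median of 8106 bp against 5388 bp, and the PDS/mock ratio rose with distal anchor width from 0.224 in the narrow tercile to 0.269 and 0.320 in the wider ones. With deciles of distal anchor width as strata, the ratio of ratios was 1.04 (0.944 to 1.14). Within terciles of that width it was 0.970 (0.801 to 1.17) and 0.973 (0.834 to 1.14) in the narrow and middle ones and 1.19 (1.03 to 1.37) in the wide one. The 3962 mock members with no motif in either anchor, the loops with least predicted G4 sequence, went to 982, a ratio of 0.248 (0.231 to 0.266). The 1685 with a motif in both anchors, away from protein-coding start sites, went to 533, a ratio of 0.316 (0.287 to 0.349). The second ratio was 1.28 times the first (1.13 to 1.44), and the PETs of shared loops moved the same way, with factors of 0.598 and 0.452. Over all members the factor was 0.512 (0.459 to 0.569) with a distal motif and 0.458 (0.412 to 0.508) without. Where the promoter anchor held no motif, the order was the other way, at 0.424 (0.357 to 0.498) and 0.452 (0.395 to 0.516). Promoter anchors with a motif elsewhere had a median width of 10882 bp and those without any 7081 bp. The part of width in the difference between members with a motif in both anchors and in neither was not tested.

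Genes differed widely in how many member PETs they carried. Of 4749 genes, 4384 had a mock member loop, 1859 a PDS one and 1494 both, while 2890 had mock loops only and 365 PDS loops only. Among 389 genes with at least 20 mock PETs, the interval of the PDS/mock PET ratio lay above the 0.245 of all members in 10.3% and below it in 21.1%, and 66 had no PDS loop. PETs of a gene are not independent of one another, so these intervals are narrower than the spread between cultures would be. All 20 genes with most PETs had fewer in the PDS list, as did 86.1% of all genes with members. Of the 20, 7 had an interval above 0.245 and 4 below. All 20 lay on chromosomes 2, 6, 14, 16, 17 or 20, which held 55.2% of all mock members.

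MIPOL1, which encodes a coiled-coil protein, held most, with 285 PETs in 65 loops in the mock list and 111 PETs in 31 loops in the PDS list. Its ratio was 0.389 (0.313 to 0.485), above that of all members, and 18 loops were in both lists. TTC6, its neighbour, went from 141 to 59 PETs. RALGAPA1, a subunit of a GTPase-activating complex for Ral proteins, went from 174 to 79 PETs, a ratio of 0.454 (0.348 to 0.592). EGLN3, a prolyl hydroxylase that acts on hypoxia-inducible factor, went from 118 to 38. NUBPL, an assembly factor of mitochondrial complex I, kept the largest share of the 20, from 96 to 60 PETs in 20 and 17 loops, a ratio of 0.625 (0.453 to 0.862). These 5 genes of chromosome 14 all retained more of their PETs than the members as a whole, although the interval of EGLN3 (0.224 to 0.463) did not exclude 0.245.

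MIA2, which helps export large cargo from the endoplasmic reticulum, lies on the same chromosome and went from 122 to 15 PETs, a ratio of 0.123 (0.0724 to 0.209). PSMA6, a subunit of the 20S proteasome core, went from 89 to 13 (0.146, 0.0823 to 0.259). ARHGAP18, a GTPase-activating protein, had the lowest ratio of the 20, from 90 to 10 PETs (0.111, 0.0585 to 0.211). THADA went from 88 to 11 and MBD5, a methyl-CpG-binding domain protein, from 87 to 11, both with intervals below 0.245. SEC23A, part of the COPII coat, went from 72 to 32 PETs in 9 and 6 loops. FTO, an RNA demethylase, went from 95 to 32, AKAP6, an anchor of protein kinase A, from 89 to 34, and PLCB1, a phospholipase C, from 95 to 21.

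**Figure D3:**
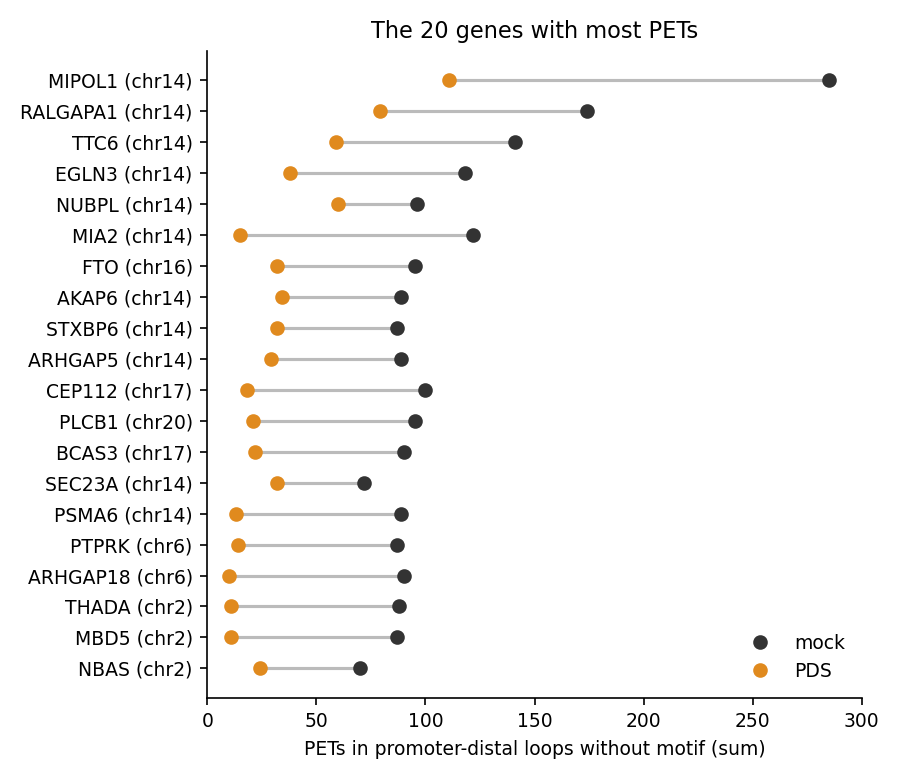
PETs summed over member loops in the mock list (black) and the PDS list (orange) for the 20 genes with most PETs in both lists together, with the chromosome of each. Every gene had fewer PETs in the PDS list, as did 86.1% of all genes with members. MIPOL1 went from 285 to 111 and NBAS from 70 to 24.

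Of these 20 genes, 11 lay on chromosome 14, between 24.8 and 39.4 Mb. Members with a promoter anchor in that stretch went from 413 to 173 loops, a ratio of 0.419, and those on the rest of the chromosome from 305 to 89, a ratio of 0.292. Motif loops in the same stretch went from 123 to 33, a ratio of 0.268. The stretch was set by the genes above after their values were seen, so it is given without a test. Over the whole of chromosome 14 the members' ratio was 0.365 and was 1.58 times that of motif loops (1.25 to 2.01). Without chromosome 14 the ratio of ratios over motif loops was 1.09 (1.02 to 1.15).

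By chromosome the members' ratio ran from 0.130 on chromosome 21 to 0.365 on chromosome 14, among 22 chromosomes with at least 50 mock loops of both kinds, and it exceeded that of motif loops on 14 of them. HepG2 is known to carry extra copies of chromosomes 2, 6, 14, 16, 17 and 20, in whole or in part. Members there went from 5426 to 1597 loops (0.294, 0.278 to 0.311) and on the other chromosomes from 4402 to 1065 (0.242, 0.226 to 0.259). The first ratio was 1.22 times the second (1.12 to 1.33), and motif loops gave 1.30 times (1.20 to 1.41). The members' factor of shared loops was similar in both groups, at 0.485 (0.445 to 0.527) and 0.477 (0.405 to 0.558). Motif loops had factors of 0.469 and 0.456. Copy number was not measured here and its part in the result was not tested. Members exceeded motif loops 1.08 times (0.994 to 1.16) on the former chromosomes and 1.15 times (1.05 to 1.25) on the latter.

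**Figure D4:**
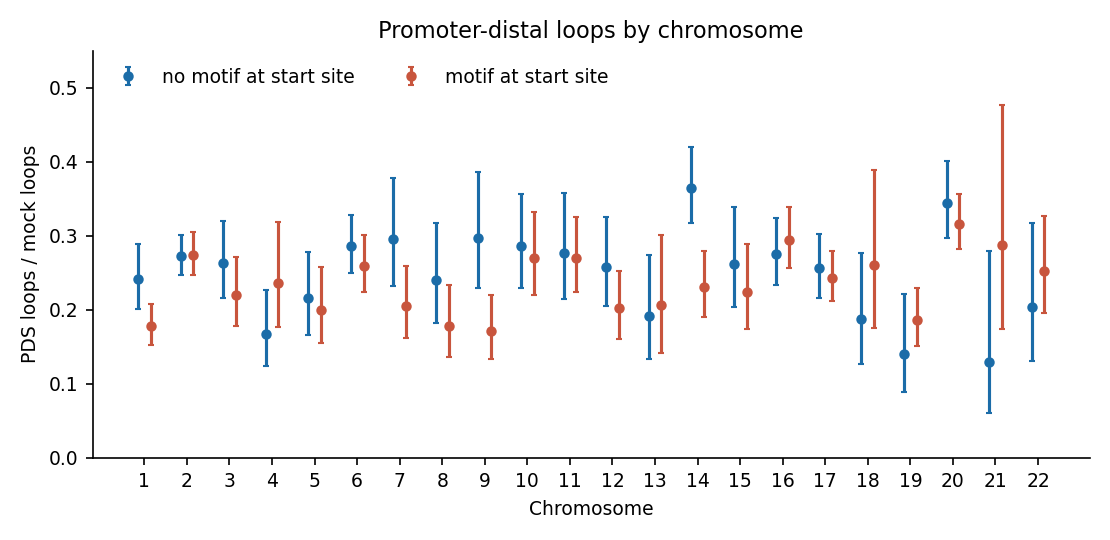
PDS/mock ratio of loop numbers (vertical axis) by chromosome for members (blue) and motif promoter-distal loops (red), with 95% counting intervals, on the 22 chromosomes with at least 50 mock loops of both kinds. Members were higher on 14 chromosomes, with the widest gap between separate intervals on chromosome 14.

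The strongest member joined a SEC23A start site to a site 23.1 kb away inside the same gene, with 24 PETs in the mock list and 13 in the PDS list. Its distal motif is printed above. At ACSM5, a mitochondrial acyl-CoA synthetase gene, a loop of 168.1 kb went from 20 to 6 PETs. A loop of AKR1C2, which encodes an aldo-keto reductase for steroids, went from 18 to 5 over 59.9 kb, and AKR1C genes are close copies of one another, so its counts are uncertain. An MBD5 loop went from 17 to 4. A loop of SULF2, a sulfatase that trims heparan sulfate, had 17 PETs in the mock list and was not in the PDS list.

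In the PDS list the strongest members were the SEC23A loop and a loop of 28.9 kb within RALGAPA1, which had 9 PETs in the mock list and 13 in the PDS list. A DNAAF9 loop went from 12 to 10 PETs and a FAM177A1 loop from 13 to 9. A USP17L11 loop went from 7 to 10, but this gene belongs to a multicopy family of deubiquitinases in which reads cannot be placed with certainty. All 5 were also in the mock list. These loops were picked for their PDS counts and the lists are not scaled for depth. Nothing is therefore drawn from counts of 13 and 10 beside 9 and 7.

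Of the 88 mock members with at least 10 PETs, 39 were absent from the PDS list (44.3%, 34.4 to 54.7%). The share over all such loops was 37.4%, and 57 of 115 motif loops (49.6%) were absent. After SULF2, the absent loops with most PETs were at AKAP6 and at PCK1, the rate-limiting enzyme of gluconeogenesis, both with 14 PETs. HJV, a bone morphogenetic protein co-receptor that sets hepcidin levels, and HNRNPLL, a regulator of splicing, had 13 each. These genes were named after their values were seen, in order of PETs.

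Loops found in the PDS list alone numbered 1618, of which 78.6% had 3 PETs and 69 had at least 5. The strongest had 8 PETs, a PPP1R21 loop of 351.1 kb and an SPTBN1 loop of 7.21 kb (SPTBN1 is a spectrin). Loops of LIMA1, PHACTR1 and AGPAT4 had 7 each. At PHACTR1, a regulator of protein phosphatase 1 and actin, member PETs went from 4 to 16, while its motif loops went from 10 PETs to none listed. These genes were named for loops found in the PDS list alone, so higher PDS counts there follow from the choice.

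Gene groups of liver and housekeeping function used motif-free start sites to different degrees. Over all genes, 45.1% of promoter-distal loops were members. Among plasma protein genes the share was 67.0% (57.7 to 75.1%), with 73 members of which 67 were in the mock list and 11 in the PDS list. ALB, which encodes serum albumin, went from 28 to 4 PETs, C8A, a complement subunit, from 20 to 4, and HP, haptoglobin, from 21 to 10. The HP loops lie at an anchor shared with HPR, a close paralog with the same counts, so they cannot be assigned to either gene. Of 29 plasma protein genes with members, 25 had fewer PETs in the PDS list, 3 had more and 20 had no PDS loop. Over all 4748 gene symbols with members, 4086 (86.1%) had fewer PETs, 471 had more and 2890 (60.9%) had no PDS loop, so these counts were near the background. The loop ratio of the plasma protein list was 0.164 (0.0877 to 0.307).

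Hepatocyte transcription factor genes had few members, 17.8% (11.2 to 26.9%) of their promoter-distal loops. Among them HNF4A went from 12 to 10 PETs, while ONECUT1 had 10 and then no PDS loop. Apolipoprotein genes had 7 members (31.8%), of which 7 were in the mock list and 1 in the PDS list. In this list APOH, a phospholipid-binding plasma protein, had 16 mock PETs and no PDS loop, and APOL2 went from 10 to 4 PETs. Immediate early genes, which respond within minutes to growth signals, had 2 members among 41 promoter-distal loops (4.88%), both at IER5, with 1 of 3 PETs in either list. Drug metabolism genes had 50.4%, with 54 mock and 17 PDS loops (0.315, 0.184 to 0.539). CYP27A1, a sterol hydroxylase of bile acid synthesis, went from 14 to 7 PETs and GSTA2, a glutathione transferase with close paralogs, from 13 to 8.

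Splicing factor genes had 55 mock and 4 PDS members, a ratio of 0.0727 (0.0274 to 0.193). Of 24 such genes, 23 had fewer PETs and 21 had no PDS loop, beside 86.1% and 60.9% of all genes with members. SRSF7 had 28 mock PETs and HNRNPLL 26, both without a PDS loop, and HNRNPC went from 38 to 8. Cytosolic ribosomal protein genes went from 26 to 2 loops (0.0769, 0.0202 to 0.293), where RPL37 with 15 and RPL23 with 14 mock PETs had no PDS loop and RPS6 had 5 and 6. Respiratory chain genes went from 30 to 3 loops (0.100, 0.0324 to 0.308), with COX7A2L from 24 to 3 PETs, NDUFA10 from 8 to 4 and UQCRC2 from 16 to no PDS loop. The share of members among promoter-distal loops was 53.8%, 40.3% and 39.0% in these 3 lists.

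Proteasome genes had 62.8% members, with 50 mock and 10 PDS loops. Beside PSMA6, given above, PSME4 went from 21 to 3 PETs and PSMD12, from 22, had no PDS loop. Mitochondrial ribosomal protein genes had 47.9%, with 39 mock and 10 PDS loops. MRPS9 went from 18 to 3 PETs and MRPL44 from 8 to 6, and MRPS10 had 17 and no PDS loop. Zinc finger genes had 45.2%, with 150 and 42 loops, and ZNF385B went from 60 to 22 PETs, ZNF831 from 22 to 10 and ZNF133 from 25 to 6. Solute carrier genes had 39.9%, with 213 and 66 loops, and SLC22A23 went from 38 to 21 PETs, SLC4A5 from 37 to 11 and SLC25A21 from 32 to 8.

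Olfactory receptor genes had 76.9% members (65.4 to 85.5%), with 40 mock and 15 PDS loops. OR5AU1 went from 21 to 8 PETs, OR6J1 from 23 to 3 and OR12D3 from 16 to 3. Histone genes had 72.0%, with 17 and 3 loops. H2AC13, H2AC14 and H2BC13 share an anchor and went from 12 to 4 PETs in the same loops. Histone and olfactory receptor genes have close copies, so reads at them are uncertain. A list's ratio is read beside the 0.271 of all members, loops of neighbouring genes may be counted in several lists, and nothing particular to a list is drawn from it.

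**Figure D5:**
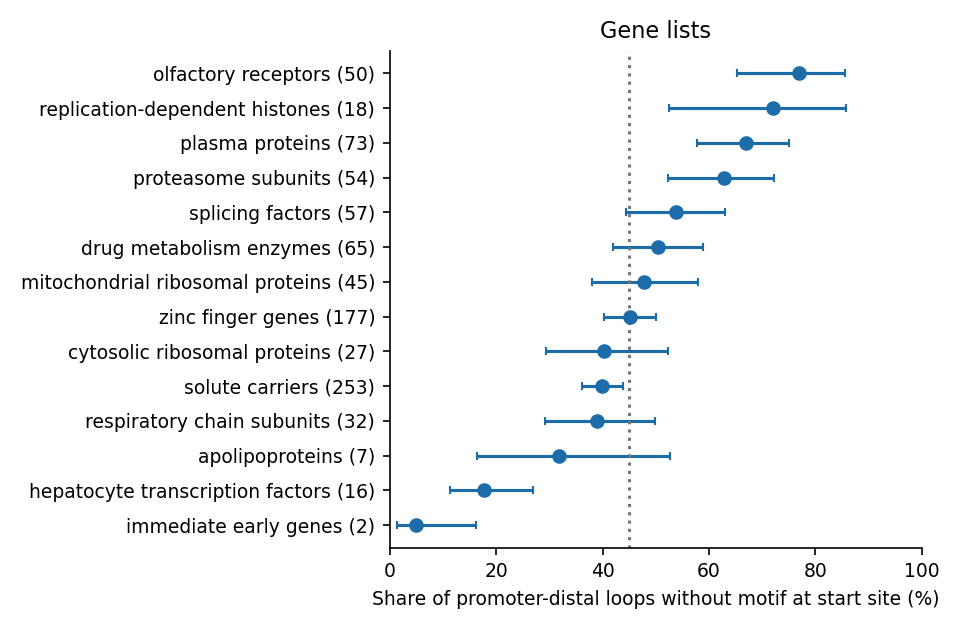
Share of each list's promoter-distal loops that had no motif at the start site (horizontal axis, percent) with 95% Wilson intervals, and the number of such loops in parentheses. The share runs from 4.88% for immediate early genes to 76.9% for olfactory receptors, with 45.1% for all genes (dotted line).

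Of 13 hepatocyte markers, 12 had a mock loop of any kind and 6 had a mock member, where 59.9% of all protein-coding genes had a mock loop of any kind and 21.9% had a mock member. Of 6 blood markers, 3 had a mock loop and none had a member, with PTPRC, HBB and SPI1 unlisted. All 6 markers of other cell types (KRT5, COL1A1, PECAM1, CDH5, MYH6 and GFAP) had a mock loop and 3 had a member. Of these 3, PECAM1 went from 26 to 3 PETs, MYH6 from 20 to 8 and CDH5 from 6 to no PDS loop.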

How the data were processed

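The authors aligned paired-end POLR2A HiChIP-seq reads to GRCh38, removed duplicates and assigned them to MboI fragments with HiC-Pro 3.1.0. They deposited 1 list of loops per condition, with whole-number counts of PETs that were not scaled for depth. The tool that listed the loops and the way the 2 replicates were combined are not given in the sources used here, and neither list holds library depths.

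Loops of both lists were matched by identical anchors. Start sites were those of all transcripts of protein-coding genes in GENCODE 44, the annotation in hand. PDS/mock ratios have 95% intervals derived from Wilson limits on the share of PDS in both counts, ratios of ratios have Woolf intervals, and stratified odds ratios are Mantel-Haenszel estimates. The factor of shared loops is a binomial split of summed PETs with at least 3 in both lists. A difference was called where its interval left out 1. Intervals cover counting error only, and no p-value was computed. Statistics were tested on simulated data.

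Genes named were the 20 with most PETs, 3 per gene list (by PETs), and those at the 5 strongest loops of each list and of the PDS list alone, and others are marked as chosen after their values were seen (1 gene that the rule names is not reported here). The members and lists were chosen with earlier results of these data known. Scripts ran in Python 3.11.15 with scipy 1.17.1, pandas 2.3.3, numpy 2.4.6 and matplotlib 3.10.9.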

Additional observations from a re-analysis of the deposited data

How the results depend on the processing

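Of 93 alternatives over 6 results, 70 kept the direction and the side of the threshold. The PDS/mock ratio of member loops stayed below 1 in all 14 alternatives (0.126 to 0.294), as did the factor of shared loops in its 14 (0.392 to 0.513). The cause of the changes below was not tested. For the ratio over motif loops, canonical start sites only gave 0.995 and turned the direction. The interval took in 1 with at least 5 PETs (1.03), a motif looked for in the whole promoter anchor (1.02), the 6 chromosomes only (1.08) and strata of canonical start site (1.02). For the odds of being listed in both, canonical start sites only (0.913), the whole promoter anchor (0.908), the other chromosomes only (0.995) and leaving out chromosome 14 (0.996) turned the direction, with intervals that included 1, and windows of 500 bp gave 1.14, past the threshold. For a motif in the distal anchor, the interval took in 1 with at least 4 PETs (1.07), canonical start sites only (1.11), the whole promoter anchor (1.12), the other chromosomes only (1.14), promoter anchors up to median width (1.09) and strata of distal anchor width (1.04). For distal anchors inside the looped gene, canonical start sites only gave 0.934 and turned the direction, and the interval took in 1 with at least 4 PETs (1.06), at least 5 PETs (1.29), the other chromosomes only (1.06), strata of distance and promoter anchor width (1.08), strata of canonical start site (1.07) and without chromosome 14 (1.09). The alternatives without chromosome 14 and with strata of chromosome, canonical start site or distal anchor width were chosen after seeing the data. No paired analysis was possible because the authors merged the replicates of each condition into 1 list, and no replicate was left out for the same reason. Most loops held 3 or 4 PETs, so single loops are known with little precision, and a loop missing from a list may have had up to 2 PETs there. Whether the tool left out loops for other reasons is not known.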
